A study of Homo sapiens with 4 samples.

Results

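Genes of prostaglandin E2 (PGE2) synthesis, sensing and breakdown were examined in bulk RNA-Seq of 2 breast cancer cell lines. The 10 members were chosen by name, with earlier results of these data known. They were PTGS1, PTGS2, PTGES, PTGES2, PTGES3, PTGER1, PTGER2, PTGER4, HPGD and PLA2G4A, and all 10 were found among the 57815 genes of the deposited table. MDA-MB-231 cells stand for triple-negative breast cancer, and LM2, as the deposited table names the second line (its full name stands in the plot of FPKM by gene), is a derivative isolated from them that metastasizes to the lung. Both lines were untreated and were grown in DMEM with serum, and 4 libraries were sequenced, 2 of each line. The table holds 1 pooled FPKM per gene and line (the number of fragments scaled to transcript length and to all mapped fragments, so that levels of different genes can be compared) and its lower and upper bound, which are given in parentheses after an FPKM. Values of single libraries were not examined here, so there is no SD, no test between replicates and no replicate check of any difference below.

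PGE2 is a lipid messenger made from arachidonic acid. Cytosolic phospholipase A2 releases the fatty acid from membranes, the cyclooxygenases COX-1 and COX-2 turn it into prostaglandin H2, and PGE synthases turn that into PGE2. The product leaves the cell and acts on the EP receptors, and 15-hydroxyprostaglandin dehydrogenase inactivates it. In tumours, COX-2 is known as the inducible enzyme of inflammation, and in breast cancer it has been linked to lung metastasis.

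In LM2, 3 of the 8 members tested were called higher and 1 lower, and at the cyclooxygenase and synthase steps the members did not move together. PTGS2, which encodes COX-2, rose 101.1-fold, PLA2G4A, which encodes cytosolic phospholipase A2, rose 15.4-fold, and PTGES, which encodes the inducible microsomal PGE synthase, rose 7.41-fold. PTGS1, which encodes the constitutive COX-1, fell to a ratio of 0.383. The other PGE synthases, the receptor EP4 and HPGD were not called. Across all 13911 genes tested, 4.67% were called higher, 4.61% lower and 9.27% in either direction. Since the members were chosen with earlier results of these data known, these shares are a background and not a test. Here a gene was called where its log2 change of FPKM + 1 reached 1.5-fold, the bounds of the cell lines did not overlap and the mean FPKM was at least 0.5, so the rule compares pooled values only. In bulk RNA, a change in the share of cells that express a gene and a change per cell cannot be told apart. Of the 10 members, 8 passed the filter on mean FPKM. The median log2 change was -0.08 for the 8 members and -0.04 for all genes tested. PTGS2 passed the filter only through its level in LM2, as its 0.455 FPKM in MDA-MB-231 lay under the limit. PLA2G4A, at 0.504 FPKM in MDA-MB-231 with bounds at 0.271 and 0.736, lay close to the limit there.

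The promoters of the 4 genes called are shown because the level of their transcripts changed, each as the 250 bases before the RefSeq start, 5′ to 3′ on the strand of the gene. The sequences were taken from RefSeq promoters of GRCh38.p14 and placed on GRCh37 by an exact match, which was found at 1 site for each. Capitals mark 8 patterns that were searched on both strands. These were the TATA box (TATAA), the CREB site (TGACGTCA) and its core CGTCA, which lies within it, the E-box (CACGTG), an AP-1-type site (TGANTCA), a C/EBP-type site (TTNNGNAA), an NF-kB-type site of GGG and CC with 5 bases between them, and the GC box (GGGCGG).
PTGS2, chr1:186649556-186649805, minus strand: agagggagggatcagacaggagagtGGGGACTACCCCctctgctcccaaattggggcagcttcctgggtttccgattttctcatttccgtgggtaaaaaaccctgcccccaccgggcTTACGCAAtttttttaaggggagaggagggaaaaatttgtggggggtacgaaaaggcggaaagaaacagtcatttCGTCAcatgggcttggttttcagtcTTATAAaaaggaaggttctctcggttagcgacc
PLA2G4A, chr1:186797831-186798080, plus strand: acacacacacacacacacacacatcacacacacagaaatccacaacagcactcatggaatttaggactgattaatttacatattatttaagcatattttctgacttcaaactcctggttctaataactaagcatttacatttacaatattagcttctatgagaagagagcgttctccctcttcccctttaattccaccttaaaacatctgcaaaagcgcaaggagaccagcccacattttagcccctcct
PTGES, chr9:132515322-132515571, minus strand: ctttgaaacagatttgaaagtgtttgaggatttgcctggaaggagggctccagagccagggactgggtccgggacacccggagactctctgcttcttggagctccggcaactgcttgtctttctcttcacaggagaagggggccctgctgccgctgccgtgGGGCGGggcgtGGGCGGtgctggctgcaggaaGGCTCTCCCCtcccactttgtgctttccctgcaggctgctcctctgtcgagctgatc
PTGS1, chr9:125132562-125132811, plus strand: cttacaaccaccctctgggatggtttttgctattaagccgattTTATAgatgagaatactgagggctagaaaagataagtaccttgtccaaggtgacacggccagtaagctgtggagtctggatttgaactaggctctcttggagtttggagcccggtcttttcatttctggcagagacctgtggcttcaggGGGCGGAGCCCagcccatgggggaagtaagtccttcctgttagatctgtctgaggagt

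In the PTGS2 promoter, TATAA ended 28 bases before the start, the CREB core began 58 bases before it, the C/EBP-type site at 133 bases and the NF-kB-type site at 225 bases. These letters are common. Of 35114 promoters of the same length, 18.9% held TATAA, 21.2% the CREB core, 33.2% the C/EBP-type and 54.4% the NF-kB-type pattern. The PLA2G4A promoter held none of the 8 motifs and was AT-rich, with 38.8% GC against a median of 58% over all promoters. In the PTGES promoter, the GC box stood at 89 and 78 bases before the start, without TATAA, and an NF-kB-type site began at 57 bases. A GC box was held by 42.6% of all promoters. The promoter of PTGS1 shown, the first of 2 in the RefSeq table, held a GC box and an NF-kB-type site at 58 bases and TATAA only at 207 bases before the start, on the opposite strand. The NF-kB-type pattern (54.4% of all promoters) and the GC box (42.6%) were each in 11 of the 14 promoters listed for the 10 members. The CREB core (21.2%) was in 4 of the 14, the C/EBP-type site (33.2%) in 3 and TATAA (18.9%) in 2. Some members have more than 1 promoter among the 14. The full CREB site (1.65% of all promoters) and the AP-1-type site (6.57%) were in none of the 14, and the E-box (6.35%) was in 1 of them, a promoter of PTGES2. A match is a description of the letters and not of binding.

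**Figure D1:**
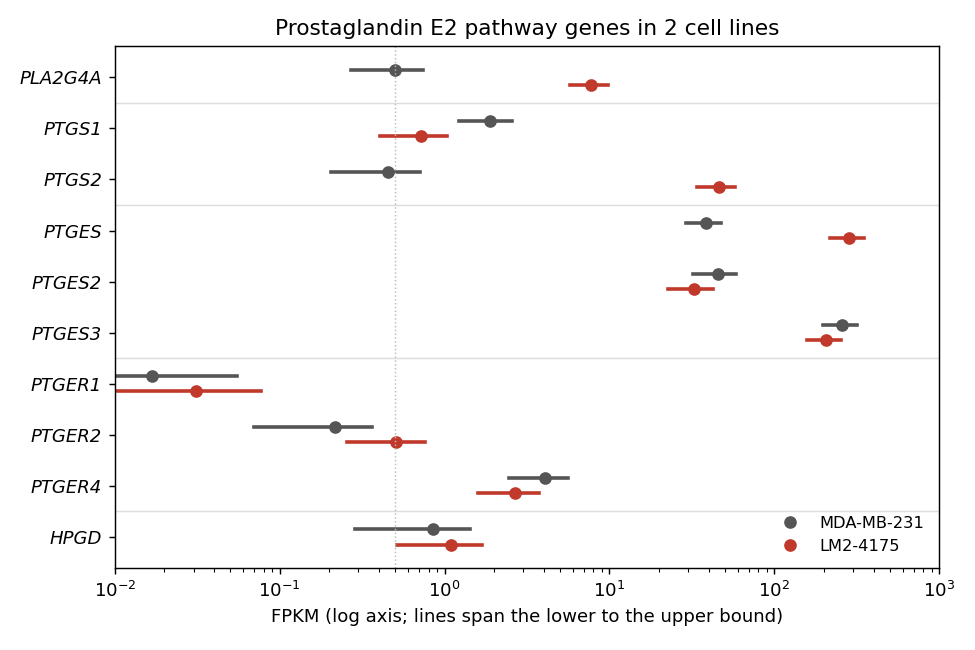
FPKM of the 10 members on a log axis in MDA-MB-231 (grey) and LM2 (red, drawn under its full name), ordered from the release of arachidonic acid to the breakdown of PGE2. Points are the pooled FPKM, lines span the authors' bounds (a lower bound of 0 is drawn to the left edge), and the dotted line marks 0.5 FPKM. The bounds are apart for PLA2G4A, PTGS1, PTGS2 and PTGES and overlap for the other 6 genes.

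PLA2G4A (ENSG00000116711.8, chromosome 1 of GRCh37, 186798085 to 186958113, plus strand) encodes the enzyme that starts the pathway. It reached 7.78 FPKM in LM2, with the authors' bounds at 5.77 and 9.79, against 0.504 FPKM in MDA-MB-231, with bounds at 0.271 and 0.736. The bounds allow a ratio between 7.83 and 36.1, and the log2 change on the scale of FPKM + 1 was 2.54, the 81st largest increase of 13911 genes. No exon of another gene overlapped its exons.

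Of the cyclooxygenases, PTGS2 (ENSG00000073756.7, chromosome 1, 186640923 to 186649559, minus strand) stood at 0.455 FPKM (0.204–0.706) in MDA-MB-231 against 46.0 (34.0–57.9) in LM2. The bounds allow a ratio between 48.2 and 285, a wide range set mainly by the low value in MDA-MB-231, whose upper bound lay 55.2% above it. Its log2 change of 5.01 was the 13th largest increase of all genes tested, and PTGS2 moved from rank 13844 to rank 2288 of the 57815 genes by FPKM. The antisense gene PACERR, named RP5-973M2.2 in the table, overlapped 3.99% of the PTGS2 exon bases in GENCODE 44. By the deposited coordinates PACERR spans 186649754 to 186650578, outside those of PTGS2 given above, so the genes do not overlap there. PACERR reached 0.218 FPKM (0.0158–0.421) in LM2, against a value of 0 for MDA-MB-231. Its mean of 0.109 FPKM did not pass the filter, so PACERR was not tested.

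PTGS1 (ENSG00000095303.10, chromosome 9, 125132824 to 125157982, plus strand) stood at 1.89 FPKM (1.22–2.56) in MDA-MB-231 against 0.724 (0.407–1.04) in LM2. The level in LM2 was 2.61-fold lower, with a log2 change of -0.74, and the bounds were apart by a narrow margin. With a threshold of 2-fold on the scale of FPKM + 1 in place of 1.5-fold, PTGS1 was not called.

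The order of the cyclooxygenases was opposite in the cell lines. In MDA-MB-231 the FPKM of PTGS1 was 4.15 times that of PTGS2, and PTGS1 made up 80.6% of their sum (63.3%–92.6% by the bounds). In LM2 the FPKM of PTGS2 was 63.5 times that of PTGS1, and PTGS2 made up 98.4% (97.0%–99.3%). Their summed level went from 2.34 to 46.7 FPKM, a ratio of 19.9.

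**Figure D2:**
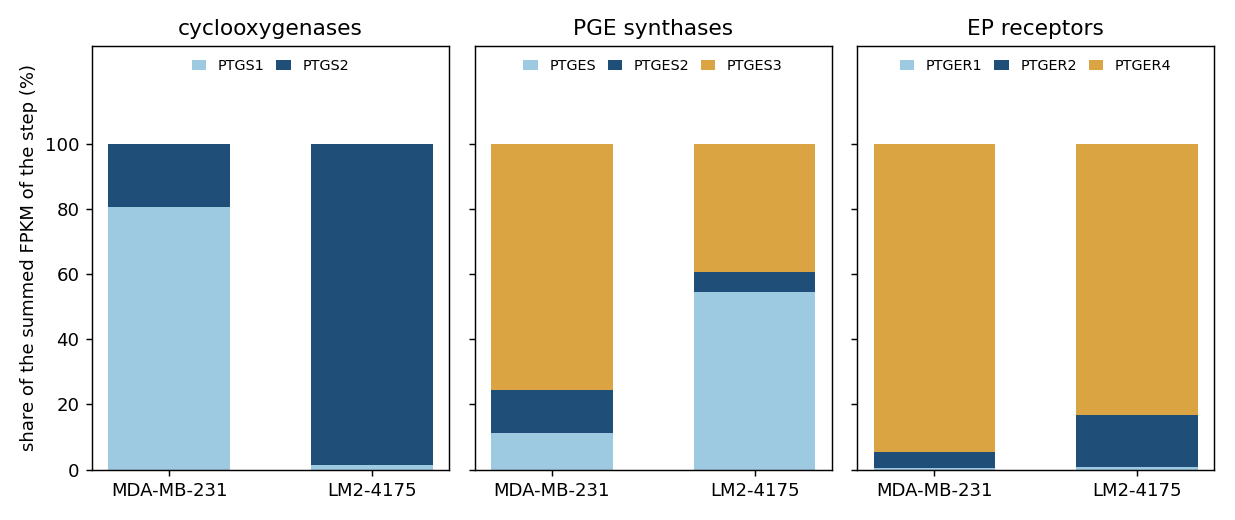
Share of each gene in the summed FPKM of its step, in percent, for the cyclooxygenases, the PGE synthases and the EP receptors examined, with 1 bar per cell line and no error bars. PTGS1 held 80.6% of the first step in MDA-MB-231 and 1.55% in LM2, PTGES held 11.2% and 54.4% of the second, and PTGER4 held 94.6% and 83.3% of the third.

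The PGE synthases are encoded by 3 genes. PTGES (ENSG00000148344.10, chromosome 9, 132500610 to 132515326, minus strand), the microsomal enzyme that is induced together with COX-2 in many cells, stood at 38.3 FPKM (29.2–47.4) in MDA-MB-231 against 284 (219–348) in LM2. The bounds allow a ratio between 4.63 and 11.9, and the log2 change of 2.86 was the 63rd largest increase. At rank 248 of 57815 genes, PTGES was the highest of the 10 members in LM2, although its bounds overlapped those of PTGES3.

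PTGES2, a membrane-associated PGE synthase (ENSG00000148334.10, chromosome 9, 130882972 to 130891481, minus strand), stood at 45.5 FPKM (32.002–58.9) in MDA-MB-231 against 32.5 (22.7–42.3) in LM2. PTGES3, the cytosolic PGE synthase also known as the HSP90 co-chaperone p23 (ENSG00000110958.11, chromosome 12, 57057127 to 57082159, minus strand), had 258 FPKM (199–318) and 205 FPKM (158–252). The log2 changes were -0.47 and -0.33, the bounds overlapped and neither gene was called. The bounds leave room for a ratio between 0.386 and 1.32 for PTGES2 and between 0.496 and 1.27 for PTGES3. Neither a decrease nor an increase was shown for them. PTGES3 has processed copies elsewhere in the genome, and the 5 pseudogenes named after it stood at 0.344 FPKM in MDA-MB-231 against 0.453 in LM2 in all, so that little of its signal was listed there. The related genes PTGES3L and PTGES3L-AARSD1, which share a locus, were not called, with log2 changes of 0.06 and 0.12.

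PTGES and PTGES2 had overlapping bounds in MDA-MB-231, while in LM2 the FPKM of PTGES was 8.72 times that of PTGES2. In MDA-MB-231, PTGES3 stood 6.75 times above PTGES. The share of PTGES in the summed FPKM of the 3 synthases was 11.2% in MDA-MB-231 (7.19%–17.0% by the bounds) and 54.4% in LM2 (42.6%–65.9%). The FPKM of PTGES exceeded that of PTGS2 in both cell lines, 84.2 times in MDA-MB-231 and 6.17 times in LM2.

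The receptors were expressed far below the synthases. PTGER4, which encodes EP4 (ENSG00000171522.5, chromosome 5, 40679600 to 40693837, plus strand), stood at 4.04 FPKM (2.45–5.63) in MDA-MB-231 against 2.67 (1.60–3.75) in LM2, a log2 change of -0.46 that was not called. PTGER2, which encodes EP2 (ENSG00000125384.6, chromosome 14, 52781023 to 52795324, plus strand), had 0.215 FPKM (0.0700–0.361) and 0.505 FPKM (0.255–0.756). PTGER1, which encodes EP1 (ENSG00000160951.3, chromosome 19, 14583278 to 14586174, minus strand), had 0.0169 FPKM (0–0.0548) and 0.0310 FPKM (0–0.0765). Both EP2 and EP4 act through the stimulatory G protein and cAMP, while EP1 acts through calcium. EP2 and EP1 did not pass the filter, and without it their bounds overlapped and they were not called. EP4 made up 94.6% of the summed FPKM of these 3 receptors in MDA-MB-231 (85.5%–98.8% by the bounds) and 83.3% in LM2 (65.7%–93.6%), intervals that overlap.

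HPGD, which encodes the dehydrogenase that inactivates PGE2 (ENSG00000164120.9, chromosome 4, 175411328 to 175444305, minus strand), stood at 0.853 FPKM (0.287–1.42) in MDA-MB-231 against 1.10 (0.511–1.68) in LM2. Its log2 change was 0.18, it was not called, and the bounds leave room for a ratio between 0.360 and 5.86. An unnamed gene on the opposite strand overlapped 5.68% of its exon bases.

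Ordered by FPKM in MDA-MB-231, PTGES3 came first, then PTGES2 and PTGES, whose bounds overlapped, and then PTGER4, PTGS1, HPGD, PLA2G4A, PTGS2 and PTGER2, each of which overlapped the next, with PTGER1 apart at the end. In LM2 the order was PTGES and PTGES3 with overlapping bounds, PTGS2 and PTGES2 with overlapping bounds, PLA2G4A on its own, and then PTGER4, HPGD, PTGS1 and PTGER2, each of which overlapped the next, with PTGER1 last again.

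**Figure D3:**
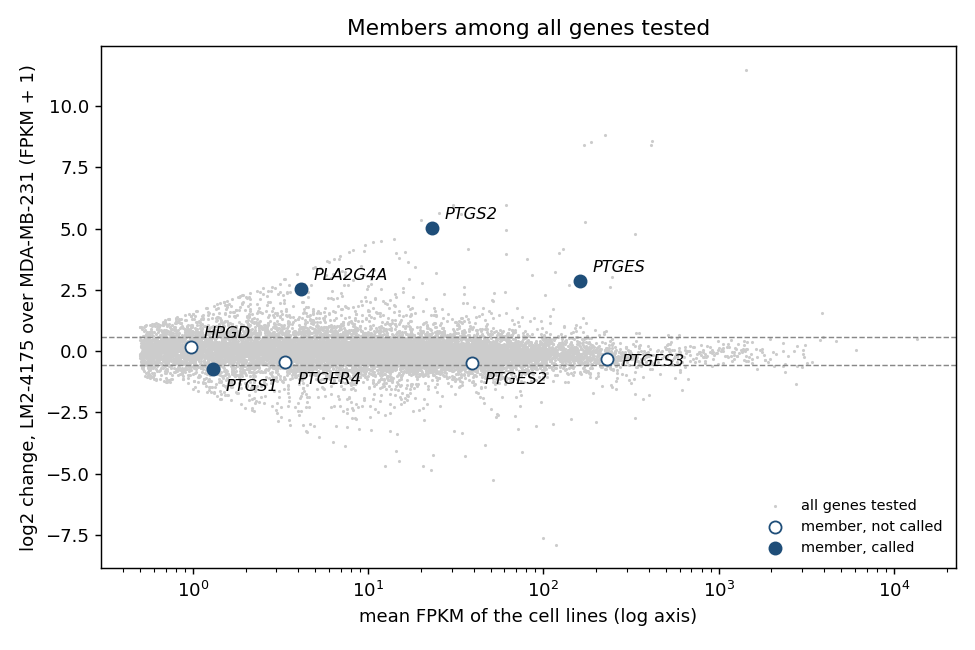
Log2 change of FPKM + 1, LM2 over MDA-MB-231, against the mean FPKM of the cell lines (log axis) for the 13911 genes tested (grey) and the 8 members tested (blue, filled where called). Dashed lines mark 1.5-fold. PTGS2 lies at 5.01, PTGES at 2.86 and PLA2G4A at 2.54, and the other 5 members lie between -0.74 and 0.18.

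PTGS2 and PLA2G4A are neighbours on chromosome 1. Their starts lie 148.5 kb apart and the genes point away from each other, and no protein-coding gene that was tested starts between them. The nearest on the other side of PTGS2, C1orf27, lies 305 kb away and had 9.53 FPKM (6.28–12.8) in MDA-MB-231 and 11.4 FPKM (7.94–15.0) in LM2, which was not called. After PLA2G4A, the nearest was RGS2, 5.98 Mb away, with a log2 change of 0.50 and no call. Of the 12 protein-coding genes tested within 3 Mb of the PTGS2 start, PLA2G4A was the only gene called, and the median log2 change was 0.11. The other neighbours lay between -0.33 and 0.63.

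Chromosome 9 holds PTGS1, PTGES2 and PTGES, and genes around them were mostly lower in LM2. Of all 13911 genes tested, 6326 had a higher value, 4.67% were called higher and 4.61% lower, and the median log2 change was -0.04. Of 37 protein-coding genes tested within 3 Mb of PTGS1, 4 had a higher value, 1 was called higher and 5 lower, with a median log2 change of -0.34. The nearest, RBM18 at 47.1 kb and PDCL at 458 kb, had log2 changes of -0.13 and -0.43 and were not called. The median was -0.41 both for the 84 genes around PTGES and for the 82 genes around PTGES2, windows that overlap since their starts lie 1.62 Mb apart. The log2 changes of PTGES2 (-0.47) and PTGS1 (-0.74) lay within the ranges of their neighbours (-2.45 to 3.16 and -1.87 to 0.85), and the part of the chromosome stretch in them was not tested. PTGES, at 2.86, was opposite in sign to the median of its neighbours, and only ENG among them had a larger log2 change (3.16). Of the 84 neighbours of PTGES, 13 had a higher value, 2 were called higher and 5 lower. The highest of them, ENG, which encodes the TGF-beta co-receptor endoglin, lies 1.90 Mb away and went from 0.463 to 12.1 FPKM. The nearest tested neighbours of PTGES, TOR1B at 50.1 kb and ASB6 at 111 kb, had log2 changes of -0.30 and -0.24 and were not called.

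**Figure D4:**
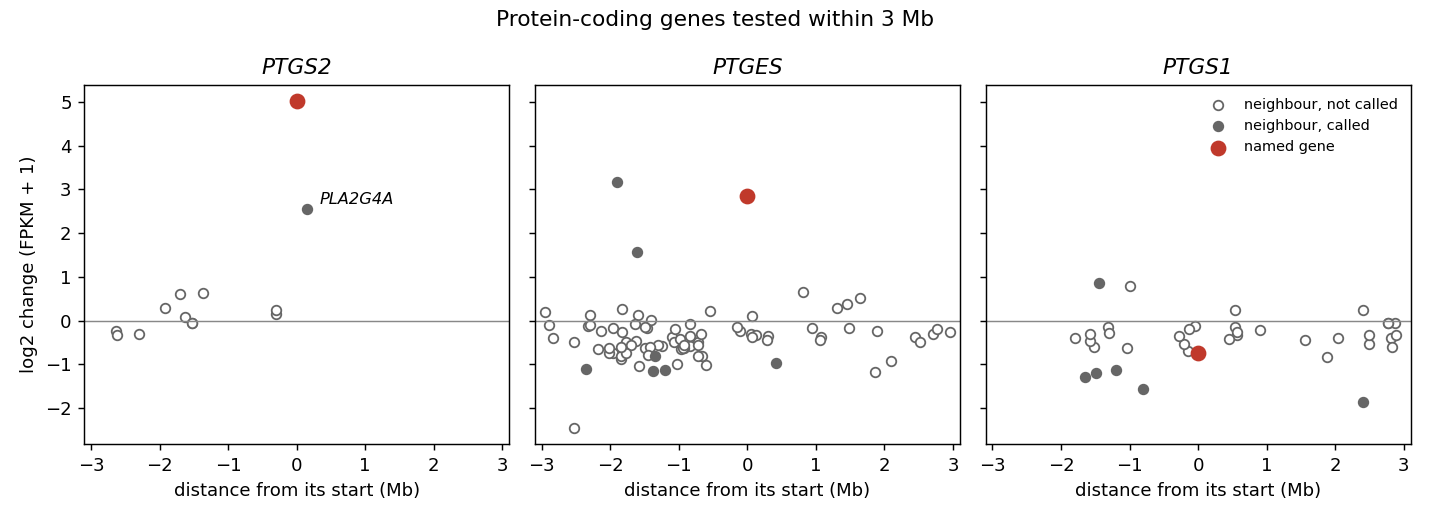
Log2 change of FPKM + 1 of protein-coding genes tested within 3 Mb of PTGS2, PTGES and PTGS1, against the distance of their starts in Mb along the chromosome. Red points are the named gene, grey points its neighbours (filled where called). PLA2G4A stands beside PTGS2 at 2.54, while the other neighbours of PTGS2 lie between -0.33 and 0.63, and most neighbours of PTGES and PTGS1 lie below 0.

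Genes around the pathway were examined from lists written from general knowledge, with earlier results of these data known. Among 22 other phospholipases A2 and lipases, 10 were tested and 1 was called, MGLL, which encodes monoacylglycerol lipase, an enzyme that can supply arachidonic acid. It rose from 18.9 (13.4–24.3) to 49.7 FPKM (34.1–65.2), a log2 change of 1.35, against a median of 0.26 for the list. No gene was called among 10 tested for activation and re-esterification of arachidonic acid (median 0.04). The largest changes there were 0.75 for ACSL4, the arachidonate-preferring acyl-CoA synthetase, and -0.58 for MBOAT2, both with overlapping bounds.

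Over all 13911 genes tested, 7585 had lower values in LM2. Among other prostanoid synthases, all 6 tested genes had lower values, with a median log2 change of -0.59, and 1 was called. This was AKR1C3, which encodes a prostaglandin F synthase and fell from 19.5 (14.4–24.7) to 7.83 FPKM (5.49–10.2). AKR1C3 is close in sequence to AKR1C1 and AKR1C2, which were not called, so that its value depends on how shared reads were split. Among 6 other prostanoid receptors, 2 were tested, and PTGFR, which encodes the receptor for prostaglandin F2alpha, rose from 0.378 (0.206–0.549) to 2.48 FPKM (1.75–3.21), a log2 change of 1.34, and passed the filter only through LM2. PTGER3, which encodes the fourth PGE2 receptor EP3, had 0.0133 FPKM (0–0.0913) in MDA-MB-231 and 0.0583 FPKM (0–0.154) in LM2 and was not tested. None of the 5 tested genes of prostaglandin transport and breakdown was called (median 0.10). The largest changes among those tested were 1.08 for SLCO4A1 and 0.44 for SLCO3A1, which encode transporters of organic anions, both with overlapping bounds. SLCO2A1 of the same list had 0.695 FPKM (0.279–1.11) in MDA-MB-231 and 0.00701 FPKM (0–0.300) in LM2. It did not pass the filter on mean FPKM, and its bounds overlapped.

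In the lipoxygenase branch, 8 of 17 entries were tested and the median was 0.16. ALOX5AP, which encodes the protein that presents arachidonic acid to 5-lipoxygenase, rose from 0.376 (0.0815–0.671) to 8.19 FPKM (5.53–10.8), a log2 change of 2.74. ALOX5, which encodes 5-lipoxygenase itself, fell from 1.06 (0.447–1.67) to 0.0572 FPKM (0–0.262), a log2 change of -0.96. ALOX5AP passed the filter only through LM2 and ALOX5 only through MDA-MB-231. The other 6 entries tested were not called.

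Downstream of EP2 and EP4, 27 of 34 genes of cAMP signalling were tested, 2 were called higher and 2 lower, and the median was -0.0012. GNAS, which encodes the stimulatory G protein alpha subunit, stood at 677 FPKM in MDA-MB-231 against 676 in LM2. PDE8A, which encodes a cAMP phosphodiesterase, rose from 11.7 (7.61–15.7) to 41.2 FPKM (26.8–55.6), and CRTC3, which encodes a CREB coactivator, rose from 7.70 (5.52–9.89) to 16.1 FPKM (11.6–20.6). Both lie on chromosome 15 in stretches with higher values in LM2, with medians of 0.88 over 17 neighbours of PDE8A and 0.89 over 36 neighbours of CRTC3 within 3 Mb, and the part of the stretch was not tested. PDE7B, another cAMP phosphodiesterase gene, fell from 4.17 (3.01–5.34) to 1.05 FPKM (0.601–1.505), and ARRB1, which encodes beta-arrestin 1, fell from 17.9 (13.3–22.5) to 10.3 FPKM (7.49–13.1). Exons of other genes overlapped 25.8% of the exon bases of ARRB1 and 7.61% of those of PDE7B.

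Of 13 tested cAMP-responsive genes, 1 was called higher and 2 lower, with a median of 0.50. This list shares CREM, PDE4B and PDE4D, none of them called, with the list of cAMP signalling. DUSP1, which encodes a phosphatase of MAP kinases, rose from 22.2 (16.8–27.7) to 42.3 FPKM (32.5–52.1). FOS, an AP-1 subunit gene, fell from 17.6 (12.6–22.7) to 2.99 FPKM (1.84–4.14). AREG, which encodes the EGF receptor ligand amphiregulin, fell from 7.08 (4.82–9.35) to 1.14 FPKM (0.582–1.71), and its near-identical copy AREGB was at 0.0448 and 0.00373 FPKM, so the split of reads between the copies is uncertain.

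Proteins that bind AU-rich elements control how long the PTGS2 transcript lasts. Of 10 genes for such proteins, all tested, 2 were called higher and 2 lower (median -0.11). ZFP36, which encodes tristetraprolin, a protein that promotes decay of such transcripts, fell from 15.7 (11.6–19.9) to 8.99 FPKM (6.51–11.5), and ZFP36L2 of the same family fell from 16.4 (11.1–21.7) to 6.35 FPKM (3.89–8.81). The third family member, ZFP36L1, rose from 64.0 (48.8–79.3) to 119 FPKM (91.3–147), and CELF2, which encodes another RNA-binding protein, rose from 5.54 (3.81–7.27) to 12.3 FPKM (8.81–15.9). ZFP36 lies on chromosome 19 among genes with a median of -0.28 over 107 neighbours within 3 Mb, and exons of another gene on the opposite strand overlapped 22.4% of ZFP36L2.

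**Figure D5:**
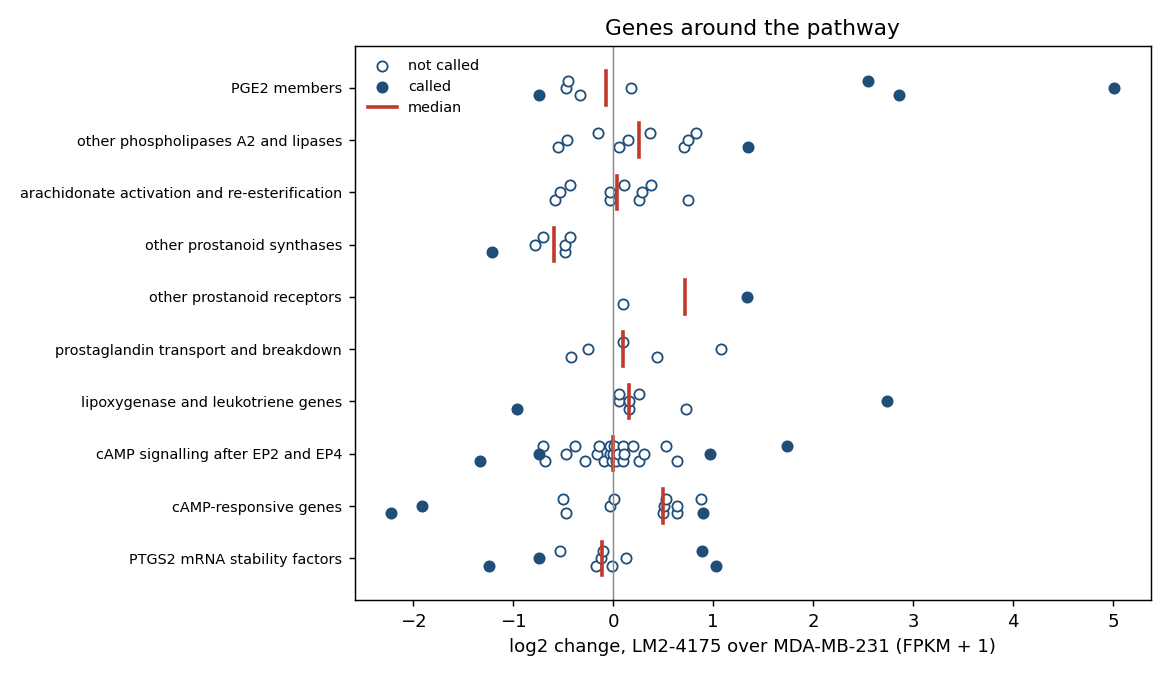
Log2 change of FPKM + 1, LM2 over MDA-MB-231, of the tested genes of the 10 members and of 9 lists around them, 1 point per gene (filled where called), with the median of each list as a red line. The medians lie between -0.59 for other prostanoid synthases and 0.72 for other prostanoid receptors, of which 2 genes were tested.

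The markers of the cell lines were checked beside these values. The 5 markers of a mesenchymal-like triple-negative line, VIM and CD44 among them, summed to 2193 FPKM in MDA-MB-231 and 2526 FPKM in LM2. They did not move together, as SPARC rose from 13.6 to 232 FPKM (log2 change 3.99) and FN1 fell from 314 to 117 FPKM (log2 change -1.41), while VIM, CD44 and EGFR were not called. Both ESR1 and PGR were at 0.0331 FPKM or less. Of 8 luminal breast genes, KRT8 (626 and 180.2 FPKM) and KRT18 (448 and 181 FPKM) were high in both, and they and EPCAM were called lower in LM2, which was not tested for a part in the results above. White blood cells and platelets also make prostanoids, and their 14 markers summed to 4.71 FPKM in MDA-MB-231 and 3.36 FPKM in LM2, with 7 and 4 of them listed at 0 and PTPRC at 0.0767 and 0.0263 FPKM. The first sum rests mostly on CSF1R (2.92 and 0.790 FPKM), while CD14 (1.17 and 1.75 FPKM), PF4 (0.172 and 0.312 FPKM) and ITGA2B (0.112 and 0.254 FPKM) had higher values in LM2, and none of them was called. The 6 endothelial and fibroblast markers found summed to 1.59 and 0.408 FPKM, mostly from LUM (1.34 and 0.178 FPKM), which was called lower, while VWF and CDH5 had higher values in LM2 at 0.0857 FPKM or less. The part of such cells in the results was not tested.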

How the data were processed

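The authors extracted total RNA of both cell lines and sequenced 2 TruSeq libraries of each. Per the labels, reads were aligned to hg19 with TopHat2 and quantified with Cuffdiff, and the study's methods name GENCODE v19 genes. The deposited FPKM values and their bounds are pooled per cell line. How libraries were scaled, whether strand was counted and whether the bounds hold the variation among libraries are not given in the sources used here, and pooling hides any library that stands apart. The table gives no depth, and library totals from other sources were not used here, so precision was read from the bounds, whose upper limit lay a median of 38.6% (MDA-MB-231) and 38.1% (LM2) above the FPKM of genes tested.

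Changes were calculated as log2 of the ratio of FPKM + 1 (LM2 over MDA-MB-231), a scale that understates changes of low genes, in Python 3.11.15 with pandas 2.3.3 and NumPy 2.4.6, and drawn with Matplotlib 3.10.9. The 8 genes with a status other than OK were left out, as were genes with a mean under 0.5 FPKM. Ratios are of FPKM without the pseudocount, and their ranges divide the bound of one cell line by the opposite bound of the other. The design foresaw limma for values per library, which pooled values do not allow. Exon overlaps on either strand were taken from GENCODE 44 on GRCh37, with 55535 genes matched by Ensembl ID. Motifs were searched only before the start, not in the bases after it that the design also named. The call rule was run on simulated data whose noise was drawn from the bounds themselves. That run cannot show whether the bounds hold the variation among libraries. All members were named. Of every other list, the genes called were named, or the 2 largest changes where none was called, and of the neighbours of called members the nearest tested gene on each side. Marker lists were described by their sums. The genes GNAS, PTGER3, SLCO2A1, AKR1C1, AKR1C2, AREGB, PACERR, KRT8, KRT18, EPCAM and ENG were added after their values were seen. So were CDH1, GATA3, FOXA1, EPHX2, ALOXE3, CREM, PDE4B and PDE4D, and the single markers of other cells. The members and lists were chosen with earlier results of these data known.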

Additional observations from a re-analysis of the deposited data

How the results depend on the processing

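PTGS2 and PTGES were called higher under all 11 alternatives, and PLA2G4A under the 10 in which it was tested. The log2 change ranged from 5.01 to 6.66 for PTGS2, 2.86 to 2.94 for PTGES and 2.54 to 3.95 for PLA2G4A, with the highest values of PTGS2 and PLA2G4A without a pseudocount. PTGS1 was called lower under 9 of 10 alternatives, with values from -1.38 to -0.71, and no member reversed its direction. With a 2-fold threshold, 0 members and 403 of all genes were called lower. At a mean FPKM of at least 5, which leaves out PTGS1 and PLA2G4A, 0 members were called lower and 321 of all genes higher. The fold alone called 1434 of all genes higher and 1640 lower, and a test of the difference on standard errors taken from the bounds, chosen after the data were seen, 1090 lower. Scaling to equal sums shifted LM2 by 0.08 on the log2 scale. Replicates could not be left out in turn because the values are pooled. No paired analysis was possible because the columns carry 1 value per cell line. Relative to the level, the bounds were widest for PTGER1, PTGER2 and HPGD.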

Other observations

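Genes called next to members that were not called were found at 2 places, both named after their values were seen. LCN2, which encodes lipocalin 2, starts 19.9 kb from PTGES2 and rose from 1.03 (0.403–1.66) to 5.03 FPKM (3.14–6.92), a log2 change of 1.57. WDR17, the nearest tested gene after HPGD at 1.54 Mb, rose from 0.438 (0.167–0.710) to 2.48 FPKM (1.497–3.45). AREG fell with a log2 change of -1.92 in a stretch of chromosome 4 where 6 of the 8 protein-coding genes tested within 1 Mb were called higher, with a median of 2.98.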
